A study of Eptesicus fuscus and Canis lupus familiaris and Equus caballus with 4 samples.

Results

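The hairpin family described here is a set of 47 hairpin candidates from the testis of the big brown bat, Eptesicus fuscus, out of 762 candidates listed for that animal. Such a candidate is genomic sequence predicted to be transcribed into a foldback, with small RNA reads on an arm of it. The members were found by sequence alone. Starting from Candidate_347, bat hairpins were joined whenever blastn aligned them over 50 or more bases at 80% identity or more, and hairpins joined to a member became members themselves. The 47 members lay on 47 contigs, and no pair of members covered the same stretch. Candidate_347 gives the family its name because it had the most reads, so its first place among the members is a description of that choice. By number of candidates the family ranked 3 in the bat list, after families of 97 and 49, and by reads it ranked 9.

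The study sequenced the small RNA fraction of adult testis as 50 bp single-end reads from dog, horse and bat, without a treatment or genetic change named in the labels. The series holds 4 libraries, and the family rests on 1 bat library. Another bat library, from a different individual, was not analysed here. Horse and dog, with 1 library each, were searched for related hairpins. With 1 library there is no replicate error and no test, and in whole tissue the reads of a candidate cannot be assigned to a cell type. The 95% intervals (exact, Clopper-Pearson) reflect counting error alone. They take reads or candidates as independent, although family members share sequence.

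A miRNA is cut from the stem of a hairpin transcript by the enzymes Drosha and Dicer, and the mature strand finds its targets mainly through its seed, bases 2 to 8. Genomes also hold short interspersed elements, SINEs, which are copied through RNA and are scattered in many diverged copies. Many SINEs descend from tRNA genes and keep the internal A box and B box, the start signals of RNA polymerase III. Vesper bats, to which Eptesicus belongs, are known for tRNA-derived SINEs and for DNA transposons. The series title asks about DNA transposons as a source of putative miRNAs. No repeat library was used here, so no element class is assigned to the family.

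The sequences that carry the family's pattern follow, written 5′ to 3′ with T for U. In the hairpins the capitals mark the listed mature sequence. Candidate_347 and Candidate_776 had most of the reads, and Candidate_705 was the only other member with 10 or more. Candidate_601 is the closest relative of Candidate_347. Candidate_750 and Candidate_318, picked after their values were seen, stand for the 2 subgroups described further on.
Candidate_347: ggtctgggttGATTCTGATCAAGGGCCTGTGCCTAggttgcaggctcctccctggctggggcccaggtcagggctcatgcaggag
Candidate_601: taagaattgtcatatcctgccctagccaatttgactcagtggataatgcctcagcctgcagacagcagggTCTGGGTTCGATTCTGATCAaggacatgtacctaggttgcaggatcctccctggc
Candidate_776: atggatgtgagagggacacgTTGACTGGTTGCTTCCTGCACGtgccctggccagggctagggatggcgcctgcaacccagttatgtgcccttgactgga
Candidate_705: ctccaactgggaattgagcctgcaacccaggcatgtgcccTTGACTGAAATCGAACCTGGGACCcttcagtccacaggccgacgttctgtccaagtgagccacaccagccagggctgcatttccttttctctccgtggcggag
Candidate_750: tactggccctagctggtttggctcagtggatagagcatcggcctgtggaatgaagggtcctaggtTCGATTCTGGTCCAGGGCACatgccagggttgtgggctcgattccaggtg
Candidate_318: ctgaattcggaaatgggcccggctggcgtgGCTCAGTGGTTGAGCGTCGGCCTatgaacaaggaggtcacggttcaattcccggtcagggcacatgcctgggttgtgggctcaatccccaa

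Aligning all 47 hairpins with mafft, after turning those that ran the other way, gave a majority consensus of 137 positions, each covered by at least 12 members. Its capitals mark GGCTCAGTGG at positions 28 to 37 and GGTTCGATTCC at positions 71 to 81. The first belongs to a match to the A box pattern of tRNA genes at positions 27 to 37, and the second is a match to the B box pattern GGTTCGANNCC.
consensus: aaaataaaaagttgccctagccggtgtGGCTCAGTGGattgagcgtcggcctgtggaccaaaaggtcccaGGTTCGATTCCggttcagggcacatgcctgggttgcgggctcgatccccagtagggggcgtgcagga

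Most members had hardly any reads, and 2 members had nearly all of them. Candidate_347, on the plus strand of ALEH01034351.1, bases 12621 to 12705, had 386 reads made up of 37 distinct read sequences. Candidate_776, at ALEH01135483.1, 760 to 858 on the minus strand, had 214 reads and 25 distinct sequences. Together they held 600 of the 701 reads of the family, which is 85.6% (82.8 to 88.1), and Candidate_347 alone held 55.1% (51.3 to 58.8). The other 45 members shared 101 reads. The family as a whole made up 0.787% (0.730 to 0.847) of the 89091 reads summed over the bat list.

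Below these came Candidate_705, at ALEH01123441.1, 4723 to 4865 on the minus strand, with 25 reads and 5 distinct sequences. Candidate_618 had 7 reads, Candidate_349 and Candidate_794 had 5 each, and Candidate_559 had 4. Candidate_583, Candidate_807 and Candidate_883 had 3 reads each. A further 9 members had 2 reads and 28 had 1 read. Reads thus dropped from 214 to 25 to 7 over 3 neighbouring places in the order. By read count in the whole bat list Candidate_347 ranked 45, Candidate_776 ranked 80 and Candidate_705 ranked 183 of 762.

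**Figure D1:**
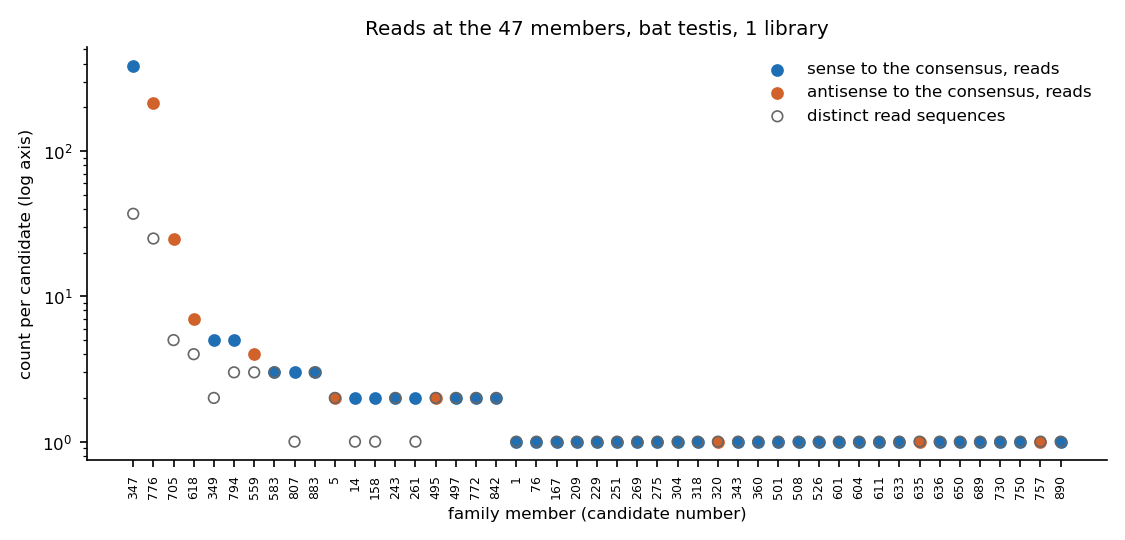
Reads (filled points) and distinct read sequences (open points) per member on a log axis, ordered by reads, with colour giving the orientation of the candidate to the family consensus. Candidate_347 and Candidate_776 stand at 386 and 214 reads, Candidate_705 at 25, and the other 44 members lie between 1 and 7.

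The share of thinly supported candidates was set beside the rest of the list. Of the members, 28 of 47 rested on 1 read, or 59.6% (44.3 to 73.6), against 28.3% (24.98 to 31.7) of the 715 other bat candidates. In the largest bat family, with 97 candidates, the share was 70.1% (59.96 to 79.0), and its best member had 5 reads. In the family of Candidate_97, with 49 candidates and 15831 reads, 1 candidate rested on 1 read. The family of Candidate_347 had the mostly single reads of the largest family, together with a pair of well-read members. Its median was 1 read, against 4 for the other bat candidates.

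The starts of the listed mature sequences were spread along the consensus, with a gap among the sense ones. For 45 of the 47 members at least 10 bases of the mature sequence could be placed on the consensus. Of these, 37 ran with the consensus and 8 against it. Of the 37 sense ones 17 began at consensus positions 26 to 46, in or just after the A box stretch. None of them began at positions 47 to 60, 17 began at positions 61 to 83 around the B box, and 3 began further on. The 8 antisense ones had their 5′ ends at position 57 (Candidate_559), at positions 87 to 100 (6 members) and at position 119 (Candidate_635). These ranges were drawn after the positions were seen. Of the remaining members, Candidate_776 had 9 mature bases on the consensus, at its far end from 129 to 137, and the mature sequence of Candidate_583 lay beyond it.

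The reads were split unevenly between these ranges. The 17 sense sequences that began near the A box stretch had 23 reads in all and at most 3 each. The 17 that began around the B box had 414 reads, of which 386 were those of Candidate_347, whose mature sequence covers positions 76 to 100. The 3 further on had 4 reads. Without Candidate_347 and Candidate_705 no mature sequence placed on the consensus by 10 bases had more than 7 reads.

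Several copies were read from the very same position. At position 78 in the consensus direction 6 mature sequences began, namely those of Candidate_807, Candidate_261, Candidate_76, Candidate_526, Candidate_604 and Candidate_650, with 9 reads in all. At position 32 there were 4, at position 31 there were 3, and at positions 39 and 98 there were 2 each. At position 76 Candidate_347 shared its start with Candidate_269, which had 1 read. The mature sequences of that pair are printed to show how far copies read from 1 position differed, with seeds in capitals.
Candidate_347: gATTCTGAtcaagggcctgtgccta
Candidate_269: gATTCTGGtcaagggcacatgctc
Counting from 1 at the 5′ end of the mature sequence of Candidate_347, these differed at 6 of the shared positions: A8G, C17A, T18C, G19A, C23T and T24C. The first of them lies in the seed.

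**Figure D2:**
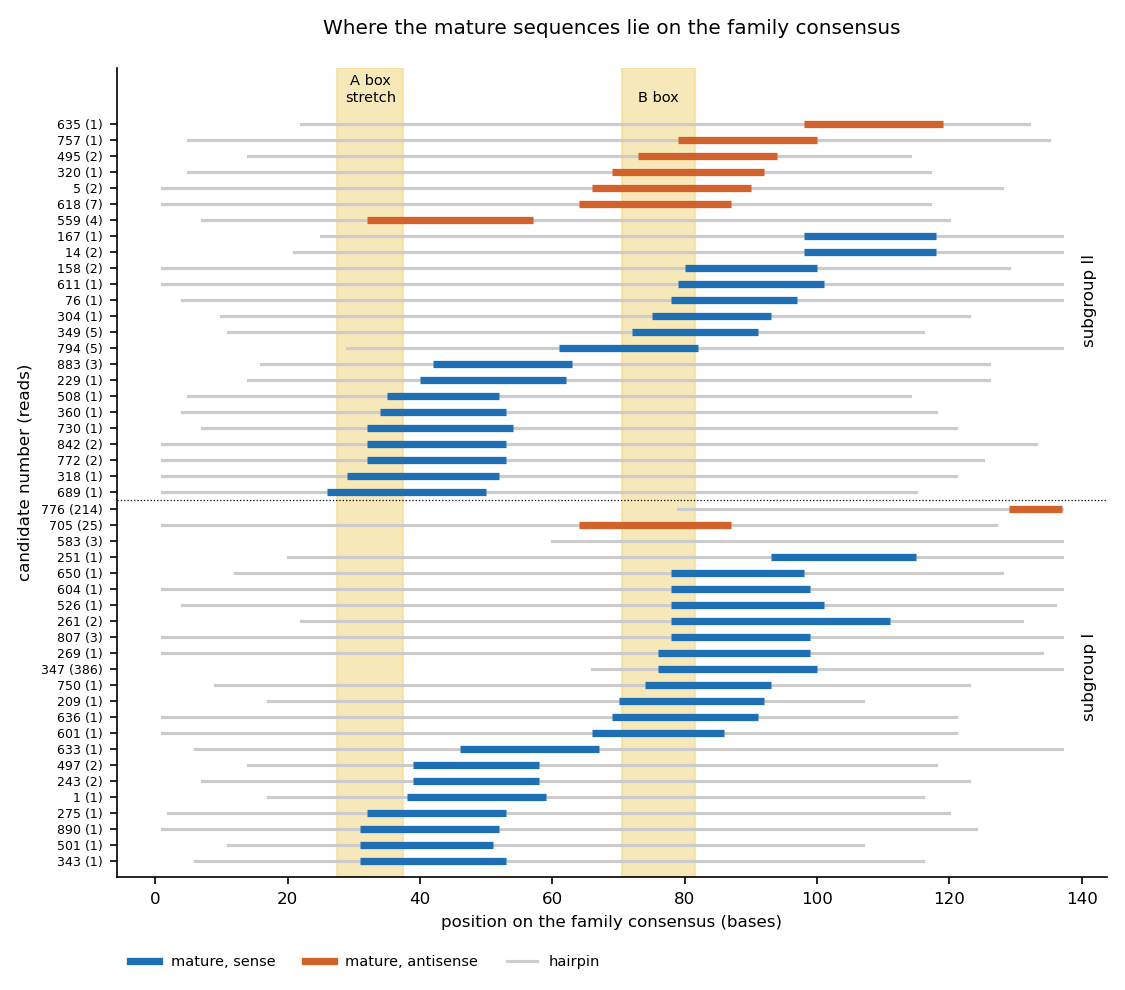
Each line is a member on the family consensus (bases on the horizontal axis), with its hairpin in grey and its mature sequence in blue where it runs with the consensus and in orange where it runs against it. Yellow bands mark the A box stretch and the B box. Sense mature sequences begin at their left end, 17 of them at positions 26 to 46, 17 at positions 61 to 83 and none between, and antisense ones begin at their right end. The names carry the reads in parentheses.

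Members were listed in both directions of the consensus, but no copy was listed in both. Reads on the other strand of a copy would not appear here unless they gave a listed candidate. The hairpins of 38 members ran with the consensus and those of 9 ran against it, and all 1406 blastn alignments between members gave the same orientation. The 9 antisense members had 257 reads, or 36.7% (33.1 to 40.4) of the family's reads. They included 3 of the 4 most-read members, Candidate_776, Candidate_705 and Candidate_618. Without Candidate_347 and Candidate_776 the antisense members held 43 of 101 reads, or 42.6% (32.8 to 52.8). Of those 43 reads 25 came from Candidate_705 alone. Of the sense members 25 of 38 rested on 1 read, and of the antisense members 3 of 9.

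Antisense mature sequences lay mostly over the B box. Those of Candidate_705 and Candidate_618 covered the same stretch, positions 64 to 87, with 25 and 7 reads, and Candidate_5, Candidate_320, Candidate_495 and Candidate_757 overlapped it with 1 or 2 reads each. Candidate_559 alone of the 9 was read over the A box stretch. Of the 9 antisense mature sequences 8 began with T, against 18 of 38 sense ones. With 9 members the interval of the antisense share runs from 51.8% to 99.7%, and that of the sense share of 47.4% from 31.0% to 64.2%.

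The copies were diverged from each other. Over the mafft alignment, pairs of members had a median identity of 66.1%, with a range from 42.6%, between Candidate_347 and Candidate_559, to 89.01%. In the blastn alignments that defined the family the nearest member was 81.1% to 91.5% identical, with a median of 87.7%. Of 1081 possible pairs 282 were linked, with a median of 12 links per member and at most 19. Identity was used to choose the members, so these values describe them.

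Both most-read members had few links to the family. Candidate_347 was linked to 3 members, at 91.2% over 57 bases to Candidate_601, 86.5% over 52 bases to Candidate_890 and 82.7% over 52 bases to Candidate_526. Candidate_776 was linked to 2, Candidate_633 and Candidate_526. Candidate_347 was also the member least like the consensus, at 56.9% of its aligned bases, where the median was 74.8%. Candidate_776 and Candidate_705 lay above the median, at 79.7% and 81.9%, so the 3 best-read members did not share a distance from the consensus. These values rest on unlike lengths: 72 aligned bases in Candidate_347, 59 in Candidate_776, the fewest of any member, and 127 in Candidate_705. Candidate_347 has the shortest hairpin, 85 bases, and it enters the consensus only at position 66, so its A box side is outside the listed hairpin.

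The hairpins were also divided into 2 subgroups, a number that was set for the clustering and not found by it. Average-linkage clustering, a step added after the alignment was seen, gave subgroup I with 23 members, Candidate_347 and Candidate_776 among them, and subgroup II with 24 members. Median identity was 75.7% within subgroup I, 69.5% within subgroup II and 62.4% between them, and 25 of the 282 links ran between them. The subgroups were made from these identities, so higher medians within than between were built in. At 86% identity 35 members were still joined together, 19 from subgroup I and 16 from subgroup II. At 87% the largest set held 12 members, all from subgroup II, and the next set 11, all from subgroup I. The remaining members were in neither of these sets. Subgroup I had 652 reads and subgroup II had 49. That contrast rested on Candidate_347, Candidate_776 and Candidate_705, since no member of subgroup II had more than 7 reads and no other member of subgroup I had more than 3. The most-read members of subgroup II were Candidate_618, Candidate_349, Candidate_794 and Candidate_559.

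**Figure D3:**
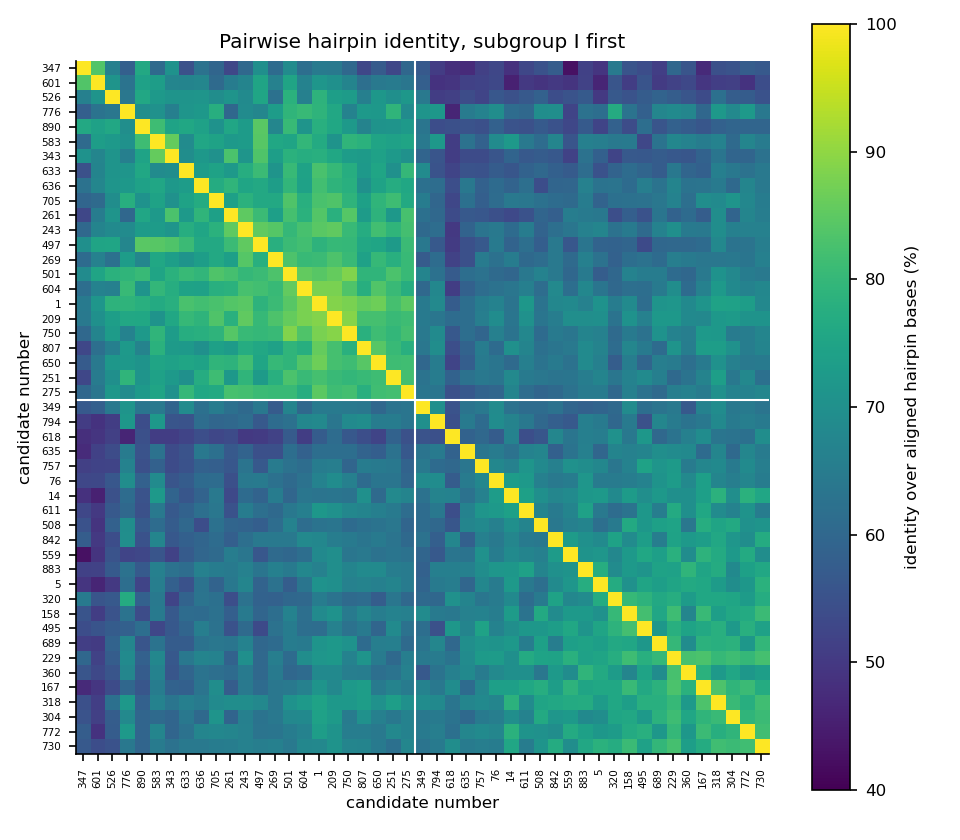
Identity over aligned hairpin bases for each pair of members (colour, in %), with members ordered by clustering and white lines between subgroup I (23 members) and subgroup II (24 members). Blocks on the diagonal are brighter than the blocks off it, with medians of 75.7% and 69.5% inside and 62.4% between. That order was built in, as the clustering used these identities and was set to give 2 subgroups. The darkest cell, 42.6%, belongs to Candidate_347 and Candidate_559.

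Letters of the tRNA promoter boxes were common in the family. The A box pattern, searched on both strands by its consensus, matched 34 of 47 members, or 72.3%, against 16.5% of the 715 other bat candidates and 6 of 97 in the largest family. On the consensus strand alone it matched 28 members. The stretch GGCTCAGTGG, taken from within the A box match of the consensus, stood in 18 members, or 38.3%, and in 0 of the 715 others. GGTTCGANNCC, the B box pattern, stood in 9 members, or 19.1%, and in 3 of the 715 others (0.420%). Since members were chosen for sharing sequence, a motif in the consensus must recur among them, and these shares are descriptions.

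Box letters were found in both subgroups. GGCTCAGTGG stood in 9 members of each subgroup. The exact B box pattern stood in 7 members of subgroup II and 2 of subgroup I, Candidate_343 and Candidate_633. It was in Candidate_349, Candidate_794 and Candidate_559 but not in Candidate_347, Candidate_776 or Candidate_705. Both stretches occurred in 4 members, always on the consensus strand, with their starts 27 to 43 bases apart and a median of 41. Hairpins covering the place of the B box numbered 46 and those covering the place of the A box stretch 43, so most hairpins without a match spanned the place with other letters or a gap.

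In the family 5 of 47 listed mature sequences had an exact copy in another listed hairpin. For each member the mature sequence was slid along every other bat hairpin on both strands, without gaps. Other read sequences of a member were not compared. The search was not run for the mature sequences of the other bat candidates, so these counts have no share beside them. An exact copy in another hairpin was found for 5 members, Candidate_243, Candidate_497, Candidate_269, Candidate_360 and Candidate_750, which had 1 or 2 reads each. The fewest mismatches were 1 for 10 members, 2 for 15, 3 for 11, 4 for 5 and more for 1. The mature sequence of Candidate_347 was at best 3 mismatches away, in Candidate_601 (G15A, C17A and G21A), and that of Candidate_776 was 4 away. Copies of the family's sequence that are not in the list were not analysed here, so other sources in the genome were not tested.

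Candidate_243 and Candidate_497 listed 1 identical mature sequence with 2 reads each.
Candidate_243 and Candidate_497: tAGAGCGTtggactgcggac
With it counted once the family had 699 reads.

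Within the family few seeds were shared. The 47 members carried 42 different seeds, and 38 of these belonged to 1 member. Seed counts of the other bat candidates are not given here. Distinct mature sequences numbered 46 among the 47 members and 601 among the 715 other bat candidates. They numbered 62 among the 97 of the largest bat family and 28 among the 49 of the family of Candidate_97. For 5 members the seed also occurred in a bat candidate outside the family. The largest seed group held 3 members with 4 reads, Candidate_261, Candidate_526 and Candidate_611, with the seed TCTGGTC read at positions 78 and 79. Candidate_772 and Candidate_730 shared AGTGGTT, which 1 candidate outside the family also had, Candidate_343 and Candidate_501 shared CAGTGGA, and Candidate_243 and Candidate_497 shared AGAGCGT. None of the 10 most-read members shared its seed with another member. Their mature sequences are printed below Candidate_347, given earlier, with the seed in capitals.
Candidate_776: tTGACTGGttgcttcctgcacg
Candidate_705: tTGACTGAaatcgaacctgggacc
Candidate_618: tGACTGGGaattgaacccatgacc
Candidate_349: gTTCGATTccaggtccagggc
Candidate_794: aAAGGTTGtgggttcgaatccc
Candidate_559: tTCATAGGtcgatgcttaaccactg
Candidate_583: gGCAGCTGatcgatgtgtctctctc
Candidate_807: tTCCCGGTcaggacacatacct
Candidate_883: aGCGTGGAcccatgaacctggg
Over their first 8 bases Candidate_776 and Candidate_705 differed only by G8A, counted from the 5′ end of Candidate_776, although the first was read at the far end of the consensus and the second over the B box.

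Listed mature lengths ran from 17 to 25 bases, both in the family and in the other bat candidates. The family's median was 22, and 41 of 47 members, or 87.2% (74.3 to 95.2), had 20 to 24 bases. Among the other bat candidates the share was 78.0% (74.8 to 81.0). These shares count candidates, and Candidate_347, with 386 of the family's 701 reads, lay outside 20 to 24 bases. The longest listed length, 25 bases, occurred in 3 members, Candidate_347, Candidate_559 and Candidate_583, or 6.38% (1.34 to 17.5), against 19.6% (16.7 to 22.7) of the others. The first base was T, that is U in the RNA, in 26 of 47 members, or 55.3% (40.1 to 69.8), against 46.7% (43.0 to 50.4) of the others. Candidate_347 began with G.

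Few members were predicted by all 5 models of the prediction program. No bat candidate was listed with fewer than 4 models, so the other members were predicted by 4. Of the 47 members 11 were, or 23.4% (12.3 to 38.0), among them Candidate_347, Candidate_705, Candidate_583 and Candidate_883, while Candidate_776 was predicted by 4. Of the other bat candidates 53.4% (49.7 to 57.1) were predicted by all 5, as were 28.9% (20.1 to 39.0) of the largest bat family and 91.8% (80.4 to 97.7) of the family of Candidate_97. The mature sequence had its midpoint on the 5′ side of the hairpin's midpoint in 27 members, or 57.4% (42.2 to 71.7), against 45.0% (41.3 to 48.8) of the others.

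The median predicted fold was weaker than that of the other bat candidates. RNAfold gave a median minimum free energy of -0.374 kcal/mol per base in the family, ranging from -0.459 to -0.285, against -0.421 in the other bat candidates and -0.532 in the largest bat family. Candidate_347 folded with -35.6 kcal/mol over 85 bases and Candidate_776 with -44.0 over 99. A median of 81.0% of the mature bases were paired, against 85% in the other bat candidates and 95.0% in the largest bat family. In Candidate_347 the share was 68.0% and in Candidate_776 72.7%, both below the family's median.

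**Figure D4:**
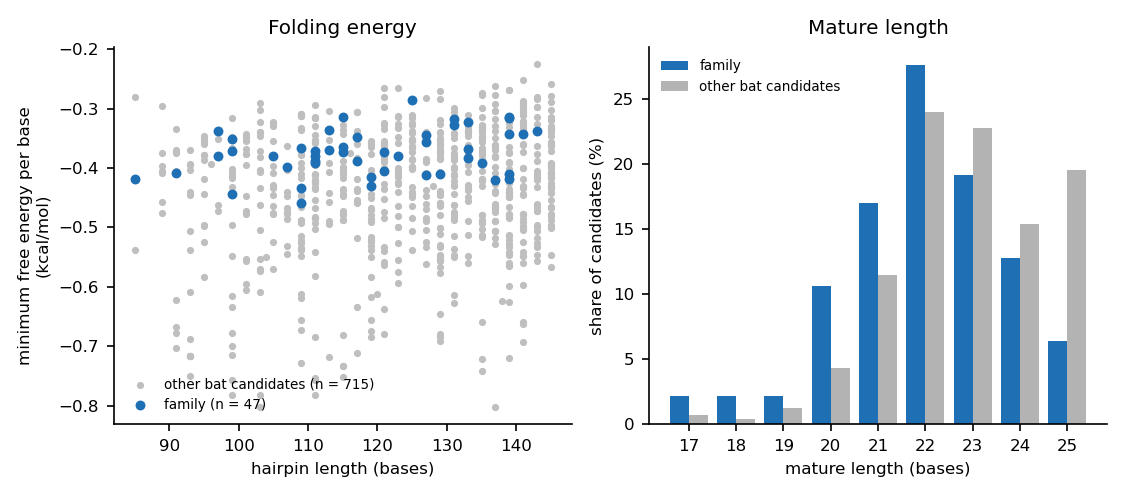
Left, minimum free energy per base (kcal/mol) against hairpin length (bases) for the 47 members (blue) and the 715 other bat candidates (grey). Members lie between -0.459 and -0.285 and none reaches the most stable folds, which go to -0.802. Right, share of candidates (%) at each mature length, with 6.38% of members and 19.6% of the others at 25 bases.

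The hairpins were cut at regular steps from their mature sequences. In 46 of 47 members the shorter flank between the mature sequence and the end of the hairpin was a whole multiple of 5 bases, as in 711 of the 715 other bat candidates. The exception was Candidate_583, which starts at the first base of its contig, ALEH01054637.1. Hairpin ends were not compared with the ends of a known element.

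Alignments lay close to the limits on both sides. A link at the identity limit, between Candidate_251 and Candidate_604, had 80% identity over 120 bases, and a link at both limits, between Candidate_251 and Candidate_349, had 80% over 50 bases. Just outside, Candidate_859 aligned to Candidate_883 at 78.6% over 84 bases and to Candidate_158 at 81.6% over 49 bases. Candidate_859, with 2 reads, aligned to 26 members, Candidate_787 to 23 and Candidate_609 to 22, the last pair with 1 read each. Candidate_116, with 4 reads, aligned to 1 member. No blastn alignment joined the family to the largest bat family.

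Relatives in the other species were almost absent from the lists. Of the 439 horse and 252 dog hairpins, 1 reached the limits used for the family. Horse Candidate_262, on chromosome 8, 24478139 to 24478255 on the minus strand of a build not given in the sources used here, had 36 reads and aligned to Candidate_497 at 80% over 50 bases. No other horse hairpin aligned to a member. In the dog Candidate_18, with 14 reads, was the only hairpin with an alignment, and it aligned to Candidate_318 at 73.02% over 63 bases. No mature sequence of a member matched a horse or dog one within 2 mismatches over 18 bases. Both lists hold candidates of 1 library, so a missing match says nothing about the genomes.

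Most members were the only listed candidate on their contig. Another candidate was listed on the contig of 2 members, Candidate_349 with 1 other and Candidate_14 with 3 others. The 715 other bat candidates lay on 535 contigs, and how many of them were alone on a contig is not given here. By strand of the contig 19 members were on the plus strand and 28 on the minus strand. The plus share of 40.4% (26.4 to 55.7) was near the 45.6% (41.9 to 49.3) of the other bat candidates. No gene annotation of the assembly behind these contigs was used, so exons, introns and UTRs are not stated.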

How the data were processed

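The authors ran miRanalyzer locally on each library, per the deposited column description. Their deposited counts are distinct read sequences and summed reads per candidate, whole numbers and not normalized. The deposited score is how many of the 5 models predicted the candidate. The deposited fraction gives a candidate's reads over the total of the authors' reads, to 3 decimals, 0.004 for Candidate_347 and 0.002 for Candidate_776. Aligner, trimming and the bat and horse builds were not given in the sources used here.

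Hairpins were joined from blastn 2.17.0 alignments (E-value 0.001, word size 7, no dust). This step was checked on simulated full-length copies of a common sequence and on random sequences. The simulated copies were less diverged than most members, and partial copies were not simulated. Hairpins were aligned with mafft 7.526 and folded with RNAfold 2.7.2. The rest used Python 3.11.15, scipy 1.17.1, networkx 3.6.1 and matplotlib 3.10.9. A mature sequence counted as on the 5′ side where its midpoint did. Members named were the 10 with most reads, those sharing a mature sequence or seed, the relatives of Candidate_347 and the links at the limits; others were singled out after their values were seen. The members and comparisons were chosen with earlier results of these data known. Other limits for linking, single counting, minimum reads, all 5 models and removal of Candidate_347 were tried. A check of the tissue by marker miRNAs was not analysed here, as no miRNA reference was used.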

Additional observations from a re-analysis of the deposited data

How the results depend on the processing

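The family depends on how closely hairpins must match. Of 83 alternative values 54 kept within 1.5 times the count or within the interval reported, and 29 did not. At 85% identity the family had 38 members and 683 reads, and at 75% identity or with 40 aligned bases, the latter chosen after seeing the data, it had 50 members and 705 reads, Candidate_609, Candidate_787 and Candidate_859 being added. At 90% identity only Candidate_347 and Candidate_601 stayed, so size was 2, reads 387, the share of Candidate_347 99.7%, lengths of 20 to 24 bases 50% of members, all 5 models 50% and the median energy -0.352 kcal/mol per base. With 70 aligned bases Candidate_347 stood alone: size 1, reads 386, its share 100%, members with 1 read 0%, 20 to 24 bases 0%, first base U 0%, all 5 models 100%, mature on the 5′ side 100% and energy -0.419. Direct links to Candidate_347 gave size 4, reads 389, a share of 99.2%, 75% of members with 1 read, 75% with first base U, 50% with all 5 models and -0.396. With members predicted by all 5 models alone reads were 427, the share of Candidate_347 90.4%, members with 1 read 36.4% and energy -0.352. Reads fell to 315 without Candidate_347 and, chosen after seeing the data, to 101 without Candidate_347 and Candidate_776.

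Placed by blastn on Candidate_347, 4 of the 11 members that aligned to it had a mature sequence overlapping its own by 10 bases or more, and placed by mafft 21 of the other 46 did. The horse and dog search gave 1 hairpin at both limits. The planned energy comparison without conserved miRNAs was not run, as no miRNA reference was used. No paired analysis was possible because each species had 1 library with a file. Depth limits most values: 28 members rest on 1 read each.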
